A study of Mus musculus with 16 samples.

Results

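Kidneys of IL-33-deficient mice were examined 24 h after unilateral ureteral obstruction (UUO), in which the ureter of one kidney is closed, here with a metal clip per the methods (the labels speak of ligation), and compared with untreated kidneys of the same genotype. The comparison held 7 of the 16 arrays of the series and was set by the labels alone: 5 arrays of genotype IL-33 KO with the treatment UUO and 2 of genotype IL-33 KO with the treatment control. The obstructed kidneys carry the numbers 3821 and 3822 (set 1) and 3897, 3898 and 3899 (set 2), and the controls 3813 and 3814, whose set is not labelled. The labels give the strain as C57/BL6 and the methods as C57BL/6J BomTac, to which the IL-33-deficient line had been backcrossed, at 8 weeks of age by the methods' default and with no promoter or Cre named that would limit the deletion to a cell type. The deposited design describes the controls as without treatment, whereas the methods also describe sham-operated mice. For untreated controls the effects of obstruction and of surgery with its analgesia cannot be told apart. Each array held biotin-labelled RNA of whole kidney, read on an Illumina BeadChip on which the brightness of a probe follows the amount of its transcript. The other 9 arrays, 7 of obstructed and 2 of control wildtype (WT) kidneys, shared the fit and are used here as a second genotype. The labels name each array as a separate sample and say nothing more about animals, so p-values measure the spread between these arrays. In whole kidney, fewer cells of a type and less RNA per cell cannot be told apart.

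A closed ureter raises the pressure in the tubules, which make up most of the kidney. Injured tubule cells are known to lose the transporters and mitochondria that mature cells use for reabsorption, to take up genes of repair and inflammation, and to send signals to the fibroblasts around them, which later lay down collagen. IL-33 is a cytokine of the IL-1 family that is stored in the nucleus of stromal and barrier cells. The question set by the design was what obstruction does to the kidney transcriptome where that cytokine is missing.

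The deposited table gave 1 intensity per gene for 18132 genes, from 95.48 to 23471, and array medians lay between 132.3 and 133.4. Values below are log2 intensities after quantile normalization, a scale on which the median gene read 7.05. A gene was called where limma gave an adjusted p (Benjamini-Hochberg over all 18132 genes) under 0.05. The tissue label fitted the bright readings of kidney genes: Umod, the urinary protein uromodulin of the thick ascending limb, read 13.03 to 13.80 in all 7 kidneys, and Slc34a1, the main phosphate transporter of the proximal tubule, read 14.22 and 14.35 in the controls. Il33, the deleted gene, read 6.88 and 6.85 in the controls and 6.88, 6.8, 7.02, 6.88 and 6.88 after UUO, all below the median gene. Its log2 fold change was 0.03 (SE 0.23, adjusted p = 0.966), whereas it read 7.62 and 8.02 in the WT controls and 8.39 to 9.57 in the 7 obstructed WT kidneys.

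UUO changed 3955 genes in IL-33-deficient kidneys, which is 21.8% of all genes tested, 1916 of them higher (10.6%) and 2039 lower (11.2%). The largest rises were genes of tubular injury, fibrinogen and complement, and the largest falls were genes of differentiated tubules. Most changes were small. The median log2 fold change was 0.51 among genes called higher and -0.47 among those called lower, and 308 rises and 327 falls reached a log2 of 1, 52 and 50 a log2 of 2, and 15 and 14 a log2 of 3. Over all genes the median was -0.0006. Only 65 of the called rises and 152 of the called falls had a mean intensity no higher than the median gene. In a fit on the 9066 brighter genes, 4023 were called, 2012 higher and 2011 lower. The counts of every list below stand beside 10.6% higher and 11.2% lower among all genes. These shares are low marks for lists of mostly bright genes. All 5 obstructed kidneys lay above both controls for 1884 of the called rises and below both for 2002 of the called falls, and 69 called genes overlapped. Over the whole table the same non-overlap held for 3168 genes above (17.5%) and 3175 below (17.5%). With 2 controls the number of calls depended on each of them: it was 2276 without control 3813 and 2575 without control 3814, and 3573 to 3798 without any 1 obstructed kidney.

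**Figure D1:**
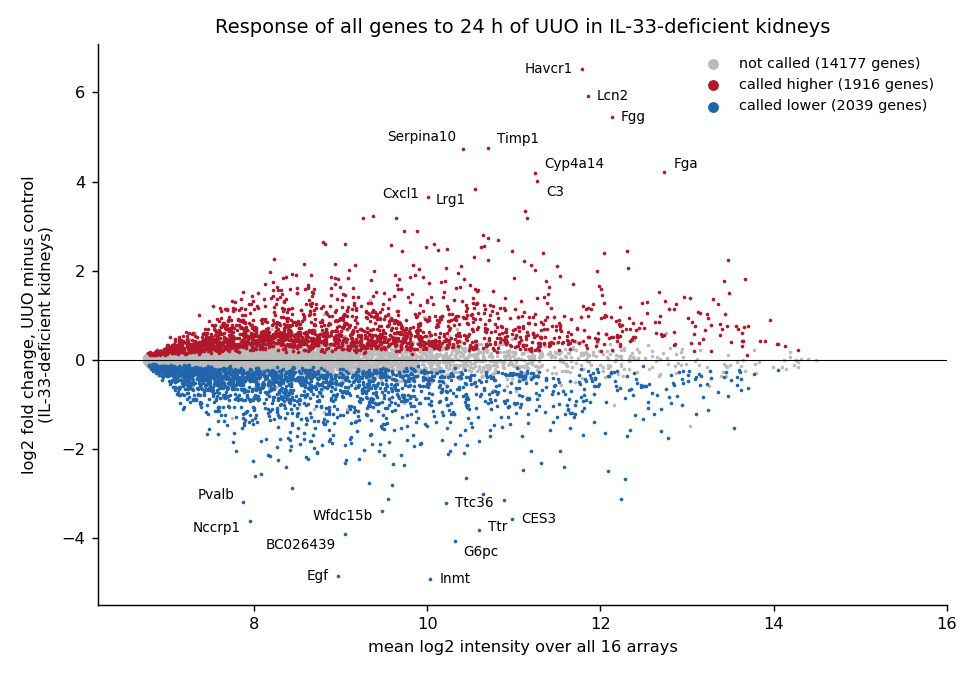
Log2 fold change (UUO minus control, IL-33-deficient kidneys) of each of 18132 genes against its mean log2 intensity over all 16 arrays. Red points are the 1916 genes called higher and blue points the 2039 called lower. The 10 largest rises and 10 largest falls are labelled, from Havcr1 at 6.52 to Inmt at -4.93.

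Havcr1 (KIM-1), a phosphatidylserine receptor and the standard marker of injured proximal tubule, rose most. It read 7.07 and 7.37 in the controls and 13.87, 13.84, 13.71, 13.61 and 13.67 after UUO, a 91.5-fold rise (log2 6.52, SE 0.64, adjusted p = 1.4e-05). The 5 obstructed kidneys lay close together and far above both controls. Lcn2 (NGAL), an iron-siderophore binding protein shed into urine after injury, went from 7.61 and 7.54 to 13.69, 13.70, 13.50, 13.60 and 12.97 (log2 5.91, SE 0.37, adjusted p = 4.2e-07), with kidney 3899 the lowest. Timp1, an inhibitor of matrix metalloproteinases, went from 7.29 and 7.65 to 12.39, 12.57, 12.25, 12.02 and 11.93 (log2 4.76, SE 0.41, adjusted p = 5.3e-06).

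Several of the other largest rises were plasma proteins that the liver usually makes. Fgg, the gamma chain of fibrinogen, read 8.09 and 8.21 in the controls and 13.49, 13.64, 13.62, 13.56 and 13.65 after UUO (log2 5.44, SE 0.35, adjusted p = 4.2e-07). Fga, the alpha chain, went from 9.94 and 9.40 to between 13.75 and 13.98 (log2 4.22, SE 0.39). Both of these chains were raised in every obstructed kidney. Fgb, the beta chain, read 6.78 and 6.87 in the controls and 6.71 to 6.88 after UUO (log2 -0.02, adjusted p = 0.917). Every reading of Fgb lay below the median gene, where a change may not show. Serpina10, an inhibitor of coagulation factor X, rose by a log2 of 4.73 (SE 0.43), C3, the central complement component, by 4.01 (SE 0.43), and Lrg1, a secreted leucine-rich glycoprotein, by 3.83 (SE 0.42). Cyp4a14, a fatty acid hydroxylase and target of PPAR-alpha, rose by 4.19 (SE 0.39), and Cxcl1, a chemokine that draws neutrophils, by 3.65 (SE 0.39). No obstructed kidney overlapped a control for these 5 genes, whose adjusted p ranged from 7.8e-06 to 3.2e-05.

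Inmt, a methyltransferase of indoleamines, fell most, from 13.09 and 13.26 in the controls to 8.06, 7.81, 8.03, 8.14 and 9.19 (log2 -4.93, SE 0.40, adjusted p = 4.0e-06). Kidney 3899 again lay nearest to the controls. Egf, the growth factor precursor of the thick limb and distal convoluted tubule, went from 12.63 and 11.98 to 7.52, 7.32, 7.5, 7.36 and 7.54 (log2 -4.86, SE 0.79, adjusted p = 4.5e-04). G6pc, the last enzyme of gluconeogenesis, went from 12.66 and 13.12 to 8.76, 8.45, 8.85, 8.58 and 9.44 (log2 -4.08, SE 0.75, adjusted p = 0.00108). In G6pc too kidney 3899 was the highest of the obstructed kidneys, while Egf was even across all 5. Ttr, the thyroxine carrier transthyretin, changed by -3.83 (SE 0.45), and Pvalb, a calcium buffer of the distal convoluted tubule, by -3.19 (SE 0.17, adjusted p = 1.5e-07), the smallest standard error among the 10 falls. The other 5 were BC026439 (-3.91), Nccrp1 (-3.62), CES3 (-3.56), Wfdc15b (-3.39) and Ttc36 (-3.21).

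**Figure D2:**
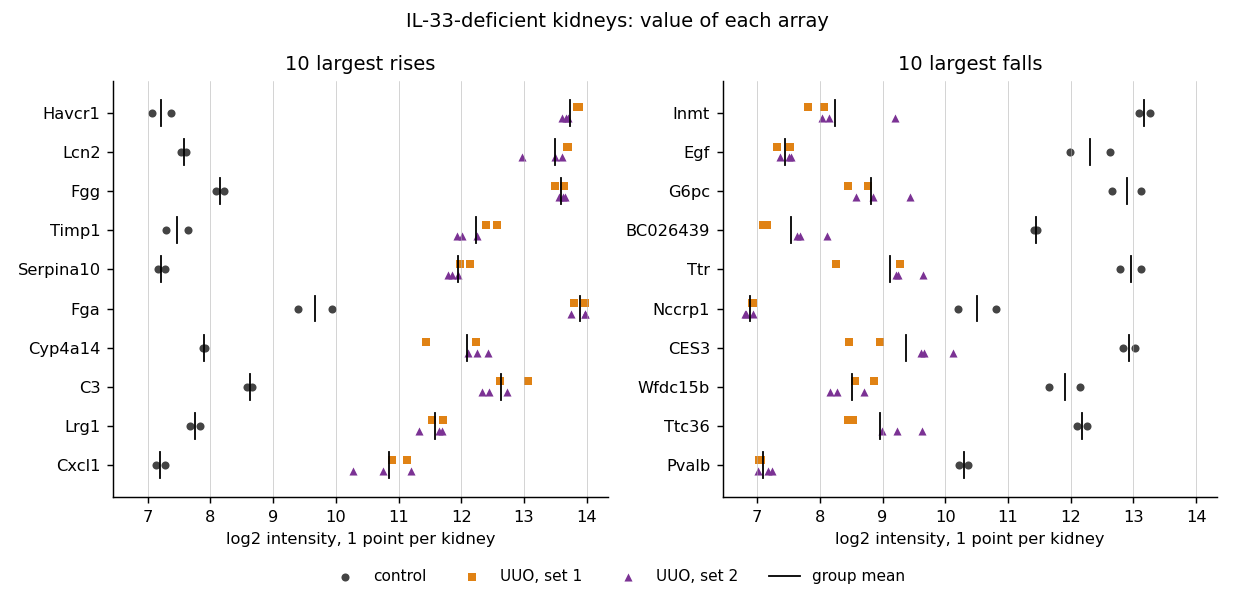
Log2 intensity of the 10 largest rises (left) and the 10 largest falls (right) in each of the 7 IL-33-deficient kidneys. Circles are controls, squares obstructed kidneys of set 1, triangles those of set 2, and the bar is the mean of each group. No obstructed kidney overlaps a control for any of the 20 genes, and kidney 3899 of set 2 is the lowest triangle of Lcn2 and the highest of Inmt.

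The standard errors came from the spread within all 4 groups, and part of that spread lay in WT kidneys. Havcr1 read 10.42 in the obstructed WT kidney 3820 and 12.84 in 3818, against 13.12 to 13.95 in the other 5. Fitted on the 7 IL-33-deficient arrays alone, the standard error of Havcr1 was 0.095 and that of Egf 0.147, and 4262 genes were called. An intensity of about 95 is the floor of the table and not a true zero, so folds of dim genes are understated. With the lowest intensity subtracted and 16 then added, the log2 fold change of Havcr1 was 7.64, that of Nccrp1 -5.18 and that of Il11 3.12 instead of 1.92. Cd44, Il6, Tnf, Postn, Ccna2, Ppara and Cpt1a, given below as not called, read between 6.72 and 7.15 in all 7 kidneys. At that level a change may not show.

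The promoters of these genes were read from RefSeq (build GRCm38.p6), which held 8 of the 10 rises and 5 of the 10 falls. The 250 bases before the start were searched on both strands for AP-1 (TGANTCA), CRE (TGACGTCA), an HNF1 half-site (GTTAAT), HNF4 (CAAAGTCCA) and the TATA box (letters TATAAA). The letters of STAT (TTCNNNGAA), NF-kB and C/EBP (TTGNNCAA) were added after the values were seen, and no motif contains another. The 6 genes with any match are printed 5′ to 3′ on the strand of the gene, with the matches in capitals, to show what stands before the largest rises and falls. Lcn2 (chr2:32387740-32387989, minus strand), Fga (chr3:83025903-83026152, plus strand) and Cxcl1 (chr5:90890995-90891244, plus strand) rose, and Inmt (chr6:55174991-55175240, minus strand), Egf (chr3:129755323-129755572, minus strand) and G6pc (chr11:101367466-101367715, plus strand) fell.
Lcn2: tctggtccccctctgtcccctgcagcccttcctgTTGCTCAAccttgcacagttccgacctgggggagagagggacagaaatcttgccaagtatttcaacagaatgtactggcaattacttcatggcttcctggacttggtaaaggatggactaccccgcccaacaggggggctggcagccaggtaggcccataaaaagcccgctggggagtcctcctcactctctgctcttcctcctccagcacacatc
Fga: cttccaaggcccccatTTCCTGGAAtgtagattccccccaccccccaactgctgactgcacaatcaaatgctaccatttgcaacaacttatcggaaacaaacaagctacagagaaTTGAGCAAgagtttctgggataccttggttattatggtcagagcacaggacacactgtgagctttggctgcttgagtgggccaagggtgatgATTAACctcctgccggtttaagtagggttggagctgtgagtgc
Cxcl1: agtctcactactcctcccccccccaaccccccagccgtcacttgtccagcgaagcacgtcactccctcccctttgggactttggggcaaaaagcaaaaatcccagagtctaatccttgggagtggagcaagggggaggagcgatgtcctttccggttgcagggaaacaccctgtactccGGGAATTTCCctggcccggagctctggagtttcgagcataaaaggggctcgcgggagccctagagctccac
Inmt: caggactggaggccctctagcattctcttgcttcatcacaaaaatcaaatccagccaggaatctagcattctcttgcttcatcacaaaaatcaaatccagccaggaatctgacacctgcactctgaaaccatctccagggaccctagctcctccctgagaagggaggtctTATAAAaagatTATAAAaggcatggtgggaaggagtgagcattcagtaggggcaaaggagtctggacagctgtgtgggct
Egf: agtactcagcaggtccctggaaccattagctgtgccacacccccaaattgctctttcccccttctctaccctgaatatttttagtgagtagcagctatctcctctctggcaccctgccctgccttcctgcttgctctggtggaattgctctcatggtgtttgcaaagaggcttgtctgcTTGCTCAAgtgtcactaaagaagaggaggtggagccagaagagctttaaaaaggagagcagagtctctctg
G6pc: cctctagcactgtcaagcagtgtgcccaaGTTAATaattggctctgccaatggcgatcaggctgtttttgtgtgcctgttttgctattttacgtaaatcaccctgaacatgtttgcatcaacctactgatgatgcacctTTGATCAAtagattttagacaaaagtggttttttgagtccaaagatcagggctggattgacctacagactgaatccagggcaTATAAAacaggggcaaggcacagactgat
Lcn2 held a C/EBP match that began 216 bases before the start. Fga held a STAT match at 234 bases, a C/EBP match at 135 and an HNF1 half-site at 43, and Cxcl1 an NF-kB match at 71. Inmt held TATA at 80 and 69 bases, Egf a C/EBP match at 71, and G6pc an HNF1 half-site at 221, a C/EBP match at 111 and TATA at 29. These are matches of letters and not measured sites. Over the 13415 genes of the table with a promoter, 6.19% held AP-1, 2.15% CRE, 5.72% the HNF1 half-site, 0.388% HNF4, 11.6% TATA, 6.67% STAT, 0.335% NF-kB and 5.34% C/EBP. Among 1426 called rises the shares were 6.03% for AP-1, 6.45% for STAT, 0.631% for NF-kB, 4.7% for C/EBP, 3.93% for the HNF1 half-site and 7.92% for TATA. Among 1583 called falls they were 3.66%, 5.12%, 0.316%, 4.8%, 5.62% and 6.82%.

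Genes of tubular injury and repair were higher as a group. Of 24 measured members 19 were called higher and none lower, against 10.6% of all genes higher, and the median log2 fold change was 1.44. Apart from Havcr1, Lcn2 and Timp1, the largest rises were Tnfrsf12a, the receptor of the cytokine TWEAK (8.30 and 8.80 in the controls, at least 11.74 after UUO, log2 3.34), and Krt20, a keratin of injured tubule (6.84 and 6.98, then 10.03 to 10.23, log2 3.19). Vim, the intermediate filament of mesenchymal and dedifferentiated cells, rose by 1.81, Krt8 by 1.77, Spp1 (osteopontin) by 1.25 and Sox9, a transcription factor of tubule repair, by 0.87. Cd44 (log2 0.08, adjusted p = 0.181) was among the 5 members not called. All 5 obstructed kidneys lay above both controls for 22 of the 24 members.

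Secreted signals were higher in part. Among 26 cytokines and chemokines 16 were called higher and 2 lower, with a median of 0.57, and the counts were 10 and 1 without control 3813, and 9 and 2 without control 3814. Il11, a cytokine that acts on stromal cells, read 7.0 and 6.95 in the controls and 8.93, 8.96, 9.04, 8.94 and 8.57 after UUO (log2 1.92, SE 0.45, adjusted p = 0.00621), a call that was lost without either control. Cxcl14 rose by 1.64, Icam1, the leukocyte adhesion molecule, by 1.48, Il34, a ligand of the CSF1 receptor, by 1.45, and Ccl2, a monocyte chemokine, by 0.51. The 2 falls were Cxcl12, the retention signal of stromal cells, from 9.31 and 9.09 to between 7.75 and 8.01 (log2 -1.31), and Ccl28 (-0.43). Il6 gave 0.20 (adjusted p = 0.361) and Tnf 0.06, neither called.

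Of 28 growth factors and receptors 10 were called higher and 6 lower (median 0.08), against 10.6% and 11.2% of all genes. The counts were 3 and 3 without control 3813, a fit that called 1055 of all 18132 genes higher and 1221 lower. They were 6 and 3 without control 3814, where 1210 of all genes were called higher and 1365 lower. Gdf15, a stress hormone of the TGF-beta family, went from 8.24 and 7.85 to 10.57, 10.64, 10.75, 10.70 and 10.19 (log2 2.52, SE 0.34, adjusted p = 1.2e-04). Osmr, the receptor of oncostatin M, rose by 1.61, Ccn1, a matricellular protein, by 1.59, and Pdgfa and Pdgfb, growth factors of fibroblasts and pericytes, by 1.24 and 1.22. Areg, a ligand of the EGF receptor, rose by 1.1 and Tgfb1 by 0.71, whereas Egf, Bmp7 (-0.76), Fgf1 (-0.67), Vegfa (-0.63), Btc (-0.54) and Fgf9 (-0.34) were lower.

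Among 22 immediate early and AP-1 genes 5 were called higher and 1 lower (27.3% called, against 21.8% of all genes). All 5 obstructed kidneys lay above both controls for 11 of the 22 and below both for 1, against 17.5% and 17.5% of all genes. Of the 22, 6 lay no higher than the median gene in mean intensity. Egr1 read 8.21 and 8.09 in the controls and 10.46, 10.40, 11.17, 11.06 and 10.10 after UUO (log2 2.49, SE 0.56, adjusted p = 0.00427). Junb rose by 2.03, Klf6 by 1.60, Egr2 by 1.37 and Jun by 1.15. The fall was Klf2, a factor of quiescent endothelium (-0.34, adjusted p = 0.0414), which was not called without either control or without kidney 3822, 3898 or 3899. Fos gave 0.67 and Atf3 0.82 without a call, though no obstructed kidney overlapped a control for either gene.

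Matrix and fibroblast genes were higher as well. Of 30 measured members 17 were called higher and 1 lower, with a median of 0.69. Col1a1, the main chain of type I collagen, read 7.44 and 8.13 in the controls and 9.61, 9.77, 9.49, 9.15 and 9.08 after UUO (log2 1.63, SE 0.31, adjusted p = 0.00123). Col3a1 went from 7.03 and 7.06 to 8.09, 8.65, 8.36, 8.32 and 8.30 (log2 1.3, SE 0.17, adjusted p = 9.9e-05), and Col1a2 from 7.09 and 7.42 to 7.90, 8.42, 8.04, 8.07 and 7.79 (log2 0.79, SE 0.18, adjusted p = 0.00454). Neither control reached any obstructed kidney for these 3 fibrillar collagens, and the call of Col1a2 was lost without control 3813. Acta2, the smooth muscle actin by which myofibroblasts are recognised, read 9.64 and 9.70 in the controls and 11.14, 11.17, 11.23, 11.20 and 11.30 after UUO (log2 1.54, SE 0.16, adjusted p = 2.2e-05). Col5a1 rose by 1.83, the basement membrane chains Col4a1 and Col4a2 by 1.46 and 1.15, Sparc, a collagen-binding glycoprotein, by 1.57, and Lox, which crosslinks collagen, by 1.12. The member that fell was Timp2 (-0.75, adjusted p = 0.00191), another inhibitor of metalloproteinases. Postn (0.09) and Pdgfra (-0.15) were not called.

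Stress and growth programmes were split between members. Of 22 heat shock and unfolded protein genes 9 were called higher and none lower (5 higher and 1 lower without control 3814). Hspb1, a small heat shock protein, went from 8.76 and 8.80 to 11.49, 11.85, 11.46, 11.47 and 11.36 (log2 2.74, SE 0.53), and Chac1 and Asns, targets of ATF4, rose by 2.60 and 2.15. Xbp1 rose by 1.31 and Atf4 by 1.20, while the chaperone Hspa5 gave 0.31 (adjusted p = 0.324). Of 17 NRF2 targets and metallothioneins 7 were called higher, among them Mt1, a zinc- and copper-binding protein, from 12.18 and 12.32 to between 13.85 and 14.30 (log2 1.82, SE 0.12, adjusted p = 8.1e-07), and Hmox1 (1.90, adjusted p = 0.0165, not called without either control).

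Among 35 cell cycle and replication genes 15 were called higher and none lower (median 0.23), with 6 calls without control 3813 and 8 without control 3814. The largest were subunits of the replicative helicase and a factor of DNA methylation: Mcm5 rose by 1.49, Uhrf1 by 1.31 and Mcm4 by 1.07. Other members were Birc5 (0.54) and Cdk1 (0.28), both called, and Top2a (0.46, adjusted p = 0.0617) and Ccna2 (-0.01), which were not. Of 24 ribosome biogenesis genes 11 were called higher and none lower, 5 without either control, led by Nop56 and Npm1 (both 0.97) and Gnl3 (0.86). Of 27 p53 targets and cell death genes 8 were called higher and 2 lower, against 10.6% and 11.2% of all genes. The rises numbered 3 without either control. Of all 18132 genes, 1055 were called higher without control 3813 and 1210 without control 3814. Only 3 of the 27 lay no higher than the median gene in mean intensity. Among the 9066 brighter genes, 2012 were called higher and 2011 lower with all arrays. Cdkn1a (p21), the inhibitor of cyclin-dependent kinases, rose from 7.57 and 7.45 to between 8.89 and 9.14 (log2 1.52, adjusted p = 2.0e-04), whereas Mdm2 gave -0.02, and the falls were Bid (-0.58), which promotes cell death, and Sesn1 (-0.53).

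**Figure D3:**
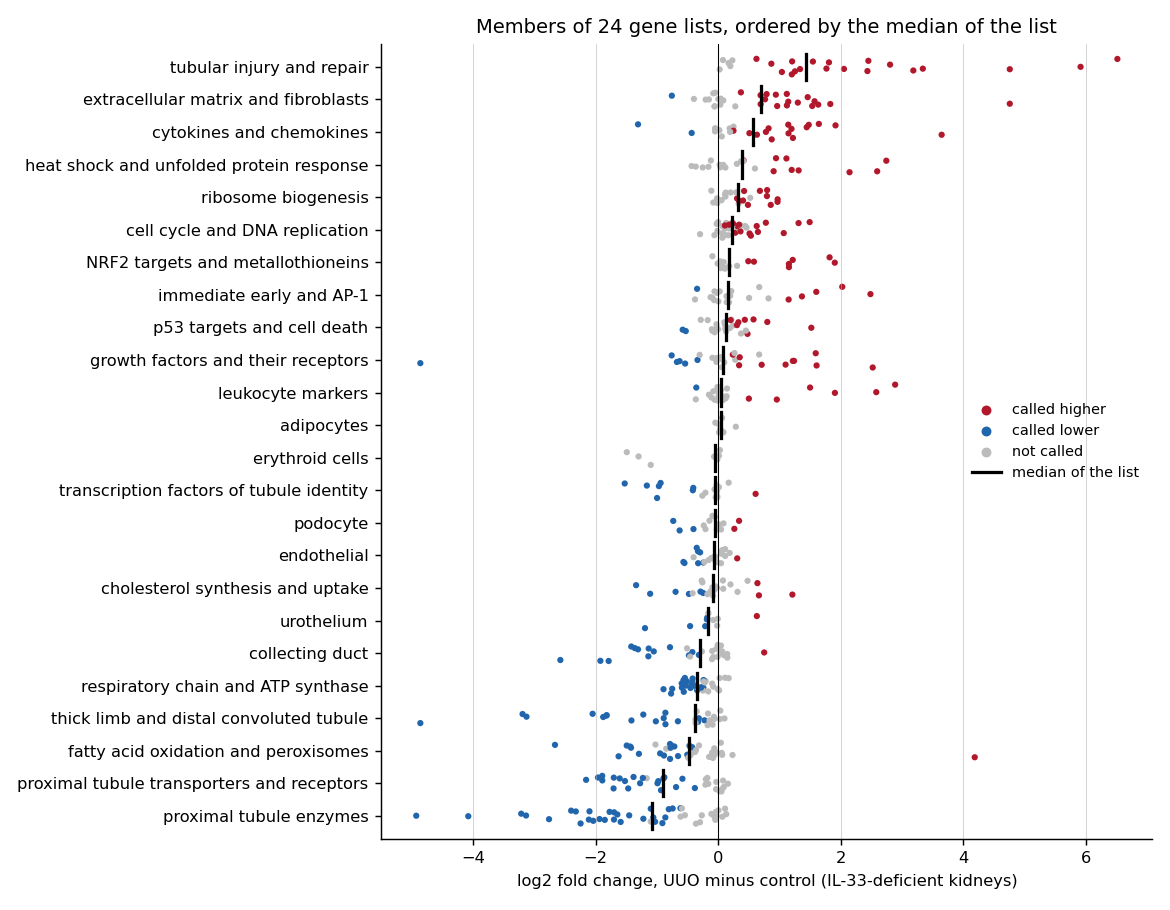
Log2 fold change (UUO minus control, IL-33-deficient kidneys) of every measured member of 24 gene lists, with red for members called higher, blue for called lower and grey for not called. The bar is the median of each list, from 1.44 for tubular injury and repair to -1.08 for proximal tubule enzymes. The lists hold 598 different genes.

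Proximal tubule genes gave the widest falls. Of 44 enzymes 28 were called lower and none higher (median -1.08), and of 33 transporters and receptors 20 were lower and none higher (median -0.89), against 11.2% of all genes lower. Miox, the enzyme that oxidizes inositol in the proximal tubule, read 14.13 and 14.15 in the controls and 10.51, 10.85, 11.25, 11.06 and 11.35 after UUO (log2 -3.13, SE 0.40, adjusted p = 8.2e-05). Cyp2j13 (-2.76), Khk, the fructokinase (-2.32), and Mep1b, a brush border protease (-2.24), fell as well. Slc34a3, a phosphate transporter, went from 9.49 and 9.70 to 7.27, 7.26, 7.71, 7.27 and 7.71 (log2 -2.15, SE 0.29, adjusted p = 1.2e-04). Slc22a7 (-1.96) and Slc22a6 (-1.70), carriers of organic anions, Slc6a20b (-1.89), Slc34a1 (-1.52) and the water channel Aqp1 (-1.27) were called lower too. Lrp2 (megalin) gave -0.20 (adjusted p = 0.287) and Pck1 -0.61 (adjusted p = 0.149), neither called. Lrp2 read only 7.19 and 7.43 in the controls, near the median gene, so a fall could hardly show.

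Genes of oxidative metabolism were lower too, by less. Of 39 genes of fatty acid oxidation and peroxisomes 17 were called lower and 1 higher (median -0.47), the rise being Cyp4a14. Eci3, a peroxisomal isomerase (-2.66), Acox3 (-1.62) and Acox2 (-1.49) fell, and Ppargc1a, the coactivator of mitochondrial genes, went from 9.99 and 9.75 to 8.60, 8.38, 8.31, 8.57 and 8.32 (log2 -1.43, SE 0.24, adjusted p = 5.4e-04). Ppara (-0.06) and Cpt1a (-0.10) were not called. Of 38 subunits of the respiratory chain and ATP synthase 23 were called lower and none higher, with 14 without control 3813 and 13 without control 3814. The median was -0.34 and the largest fall that of Uqcrc1, of complex III, from 12.50 and 12.42 to 11.58, 11.45, 11.65, 11.57 and 11.59 (log2 -0.89, SE 0.08, adjusted p = 5.3e-06). Against 10.6% higher and 11.2% lower among all genes, the 24 genes of cholesterol synthesis and uptake went both ways. Of them 3 were higher (Sqle 1.21, Fdps 0.67, Msmo1 0.64) and 6 lower, Mvd (-1.34) and Cyp51 (-1.11) the largest. The counts were 1 and 3 without control 3813, and 1 and 2 without control 3814. Only 2 of the 24 lay no higher than the median gene in mean intensity. Of the 9066 brighter genes, 2012 were called higher and 2011 lower, a closer mark for this list.

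Distal segments fell as well. Of 29 thick limb and distal convoluted tubule genes 17 were called lower and none higher (median -0.37). Slc12a1, the cotransporter that furosemide blocks, read 11.96 and 11.53 in the controls and 8.82, 8.68, 8.43, 8.72 and 8.44 after UUO (log2 -3.13, SE 0.64, adjusted p = 0.00223). Kl, the co-receptor of FGF23 (-1.88), and Bsnd, a subunit of chloride channels (-1.82), were also lower. Umod (-0.37, adjusted p = 0.4) and Slc12a3, the thiazide-sensitive cotransporter (-0.35, adjusted p = 0.123), were not called. Of 30 collecting duct genes 13 were called lower (8 without control 3813), against 11.2% of all genes. The falls included the anion exchanger Slc4a1 (-2.57), Car12 (-1.92) and the water channels Aqp3 (-1.79) and Aqp2 (-1.42). The 1 member called higher was St6gal1, a sialyltransferase (0.75, adjusted p = 0.029), which was not called without either control or without kidney 3822.

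Of 20 transcription factors of tubule identity 7 were called lower (3 without control 3813) and 1 higher, against 11.2% lower and 10.6% higher among all genes. Hnf4a, which drives proximal tubule genes, went from 11.81 and 11.64 to 10.43, 10.67, 10.92, 10.60 and 11.01 (log2 -1.0, SE 0.24, adjusted p = 0.00682), a call lost without control 3813. Esrrb and Esrra, orphan receptors of energy metabolism, changed by -1.52 and -1.16. The rise was Pax8 (0.61, adjusted p = 0.00642), likewise not called without control 3813.

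Markers of cell types other than tubule ranged from no called member to 6 of 10. Of 27 leukocyte markers 6 were called higher and 1 lower (25.9% called, near the 21.8% of all genes), the median was 0.04, and 13 of them lay below the median gene in mean intensity. The summed intensity of the list was 8977 to 12156 after UUO and 7001 to 7450 in the controls. Cd14, a lipopolysaccharide co-receptor, rose by 2.89, the neutrophil proteins S100a8 and S100a9 by 2.58 and 1.91, Lyz2 by 1.5, Cd68 by 0.96 and Ly6c1 by 0.50, whereas Csf1r, the receptor of macrophage growth factors, fell by 0.36. Ptprc (CD45), which all leukocytes carry, read 6.82 and 6.85 in the controls and 6.82 to 6.92 after UUO, and Itgam, Adgre1 and Cd3e gave log2 values between -0.06 and 0.12 without a call. Ptprc, Itgam and Cd3e read at most 7.07 in the 7 kidneys, near or below the median gene, where a change may not show. Of 8 erythroid genes none was called (1 lower without kidney 3897), but Hba-a1, a chain of haemoglobin, read 14.15 and 14.07 in the controls and 12.89, 11.99, 13.58, 12.12 and 12.53 after UUO (log2 -1.49, SE 0.55, adjusted p = 0.0695), and the summed intensity was 5186 to 13981 against 19209 to 20156. Of 8 adipocyte genes none was called, and Cfd read 8.79 in kidney 3822 against 6.98 to 7.02 in the other obstructed kidneys. The part of blood, leukocytes or fat in the results above was not tested.

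Of 23 endothelial genes 7 were called lower and 1 higher, against 11.2% and 10.6% of all genes, with falls down to Angpt2 (-0.57) and Ehd3 (-0.55) and the rise of Plvap, of fenestrated capillaries (0.31, adjusted p = 0.00445). Without control 3813 the counts were 1 lower and none higher, and without control 3814 they were 4 and 1. Only 1 of the 23 lay no higher than the median gene in mean intensity. Among the 9066 brighter genes, 2011 were called lower and 2012 higher. Of 15 podocyte genes 3 were called lower, among them Tcf21 (-0.73) and Vegfa (-0.63), and 2 higher, Nes (0.34) and Actn4 (0.27), against 11.2% lower and 10.6% higher among all genes, the rises numbering 0 without control 3813 and 1 without control 3814. Of 10 urothelial genes 5 were called lower and 1 higher, against 11.2% and 10.6% of all genes. In mean intensity, 5 of the 10 lay no higher than the median gene. Psca went from 9.40 and 8.66 to 8.01, 8.86, 7.33, 7.48 and 7.51 (log2 -1.19, adjusted p = 0.0242), so kidney 3822 overlapped the controls, and Krt14 rose by 0.63. The falls numbered 2 without control 3813, 1 without control 3814, 2 without kidney 3897 and 3 without kidney 3898 or 3899, and no urothelial rise was called without either control or kidney 3897.

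The 5 obstructed kidneys were close in their median over all called genes and less so in single lists. Their median difference from the control mean over all called rises lay between 0.47 (kidney 3899) and 0.54 (3822), and over all called falls between -0.45 (3899) and -0.49 (3822). The called genes were chosen from these same kidneys, a choice that favours similar medians. For proximal tubule enzymes the median went from -0.69 (3899) to -1.37 (3822), and for fatty acid oxidation and peroxisomes from -0.27 to -0.63. Set 2 against set 1 gave no called gene (0%), with 1129 genes at an unadjusted p under 0.05 in limma and a smallest adjusted p of 0.193. The 3 genes with the smallest p were Cenpa, a centromere histone, Rhoj, a small GTPase of endothelium, and Zfp512, all lower in set 2. Cenpa read 8.02 and 7.94 in the controls, 8.97 and 8.82 in set 1, and 8.08, 7.88 and 7.88 in set 2, so only the set 1 kidneys stood clear of both controls, and the difference of the sets was -0.95 (SE 0.14, adjusted p = 0.193). For the lists, the largest gap between the sets was in proximal tubule enzymes, with a median of -1.33 in set 1 and -0.89 in set 2, against the same controls. The heat shock and unfolded protein list gave 0.14 and 0.50.

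**Figure D4:**
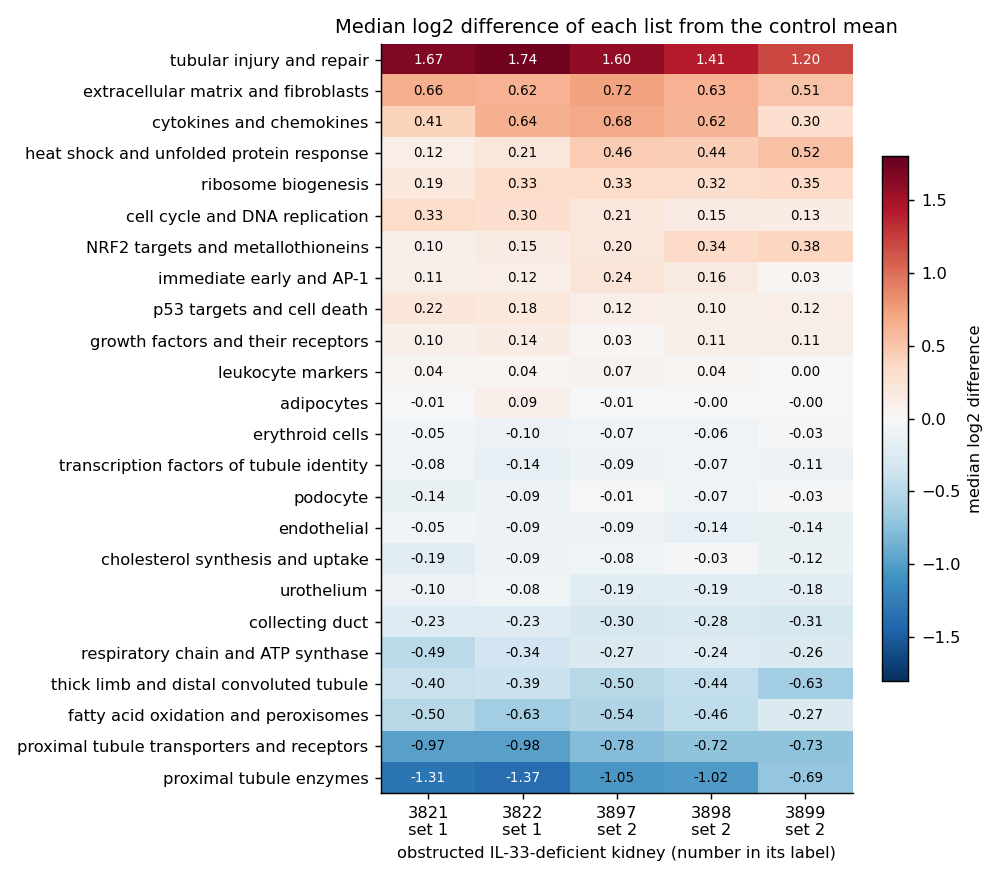
Median log2 difference from the control mean of each gene list in each of the 5 obstructed IL-33-deficient kidneys, ordered as in the plot of list members. Tubular injury is between 1.20 and 1.74 and proximal tubule enzymes between -1.37 and -0.69, with kidney 3899 the weakest in both.

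The WT kidneys changed largely in the same direction. UUO changed 2754 genes there (15.2%), 1263 higher (6.97%) and 1491 lower (8.22%). Genes called in both genotypes in the same direction numbered 2349, which is 59.4% of the IL-33-deficient calls and 85.3% of the WT calls, and 0 were called in opposite directions. The genotypes share no arrays, but both responses were tested with the same spread, taken over all 4 groups, so their calls are not independent. Of the 2754 genes called in WT kidneys, 1918 had the larger change in IL-33-deficient kidneys. This count was 1751 without WT kidney 3820, in which Egf read 11.15 and G6pc 11.61 after UUO. It was 1808 without WT kidney 3818, in which Egf read 8.97 and G6pc 11.78. Leaving out both of these kidneys was not tried.

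The difference between the responses passed the threshold for no gene (0%). In limma 860 genes had an unadjusted p under 0.05, the smallest adjusted p was 0.832, and the median standard error of the difference was 0.09. Il33 itself gave -1.41 (SE 0.32, adjusted p = 0.899), and it was called (log2 -1.55, adjusted p = 0.00209) when WT kidney 3818, where it read 8.39, was left out. Csrp1 and Mrpl3 were among the 3 genes with the smallest p. Csrp1, a LIM protein of smooth muscle, rose by 0.99 in IL-33-deficient and by 0.38 in WT kidneys (difference 0.61, adjusted p = 0.832). Mrpl3, a mitochondrial ribosomal protein, gave 0.32 and 0.05. Acta2 rose by 1.54 and by 0.49 (difference 1.04, adjusted p = 0.832), with 11.14 to 11.30 in obstructed IL-33-deficient kidneys and 10.18 to 10.88 in obstructed WT kidneys, and with 9.64 and 9.70 in the IL-33-deficient and 9.79 and 10.30 in the WT controls. Col1a1 gave 1.63 and 1.17, Col3a1 1.3 and 0.84, and Col1a2 0.79 and 0.24, and each of these differences had an adjusted p of 0.973. For Havcr1 the responses were 6.52 and 5.78 (difference 0.74, SE 0.89).

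**Figure D5:**
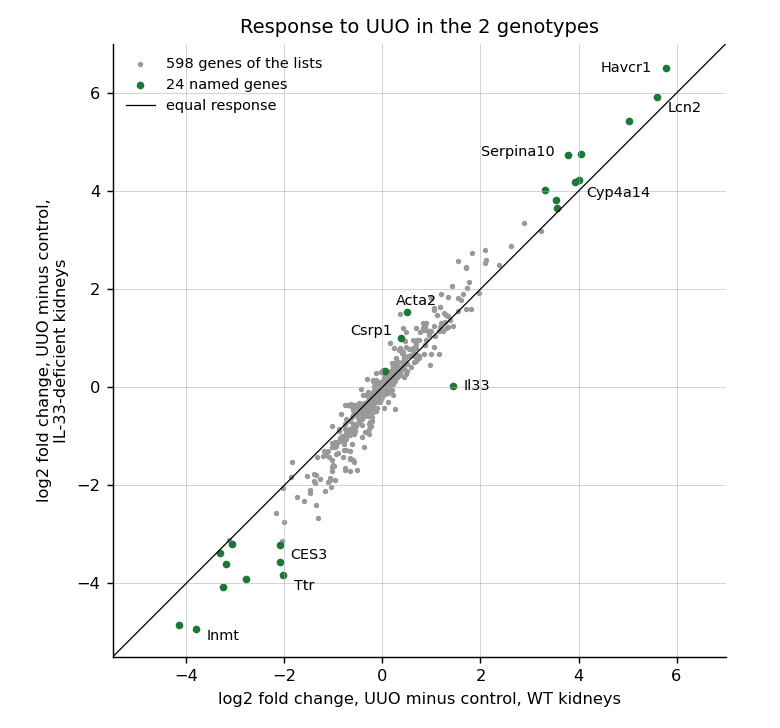
Log2 fold change (UUO minus control) in IL-33-deficient kidneys against that in WT kidneys for the 598 genes of the lists (grey) and 24 named genes (green), with the line of equal response. More points lie on the side of a larger change in IL-33-deficient kidneys (3522 of all 3955 genes called there, a count that this choice of genes favours), and Il33, at 0.03 against 1.43, lies farthest to its right among the genes with little change in IL-33-deficient kidneys.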

How the data were processed

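Whole-kidney RNA of 16 samples was hybridised to Illumina MouseRef-8 BeadChips, 1 array per sample, and 7 of these arrays form the comparison. The authors deposited 1 intensity per gene and array, on a linear scale, exported with BeadStudio 2 per the submitters' processing notes. Per the methods the values were imported with the beadarray package, and background correction and normalization are not given in the sources used here. The 16 columns held nearly the same values at each rank (median difference 0.707%, highest 8.95%). The intensities were quantile-normalized and set to log2 (R 4.3.3, limma 3.58.1), and 1 mean per group (genotype and treatment) was fitted with lmFit and eBayes, with no covariate. Adjusted p-values are Benjamini-Hochberg over 18132 genes. The number of arrays, 5 against 2, limits the precision. On simulated data the fit recovered 95% of genes changed by a log2 of 1 and 80% of those changed by 0.5, with 11 false calls. The simulation changed 100 genes at each size and drew independent normal noise, with the same SD in all arrays for a gene. The real data held 3955 calls and uneven WT kidneys, so these shares may not hold for them. Python 3.11.15 with numpy 2.4.6, pandas 2.3.3 and matplotlib 3.10.9 made the summaries and plots.

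Genes were named by a rule: Il33, the 10 largest called rises and falls without overlap, the 3 largest changes of each list with its largest called change against the list, 4 matrix genes, and 3 genes each for the difference between genotypes and between sets. Other list members were chosen as examples after their values were seen. The comparison and the 24 lists (652 genes listed, 598 different genes measured) were chosen with earlier results of these data known. Of the gene symbols, 14305 matched RefSeq, 2659 matched a synonym and 1168 neither. Alternatives were other scalings, array weights, a variance trend, brighter genes and IL-33-deficient arrays alone. Others left out each IL-33-deficient array or a set, took set as a random block, or used a fold minimum or the study's own threshold. Some results are not reported here.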

Additional observations from a re-analysis of the deposited data

Results flagged for a closer look

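In 9 of the 98 named genes, 1 of the 5 obstructed IL-33-deficient kidneys lay apart from the other 4 by Dixon's test. Chance flags about 1 in 20 groups. Kidney 3899 was the one in 4 genes, 3821 and 3822 in 2 each, 3897 in 1 and 3898 in 0. In kidney 3899, Lcn2 read 12.97 against 13.50 to 13.70 in the others, Inmt 9.19 against 7.81 to 8.14, Junb 9.33 against 9.65 to 9.73, and Il11 8.57 against 8.93 to 9.04, each time on the side of the controls. In kidney 3821, Mcm4 read 8.84 against 8.5 to 8.57, and Hmox1 9.40 against 10.14 to 10.40. In kidney 3822, Hspb1 read 11.85 against 11.36 to 11.49, and Cfd 8.79 against 6.98 to 7.02. In kidney 3897, Mt2 read 8.04 against 8.5 to 8.57.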

How the results depend on the processing

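Of the 98 named genes 95 kept their direction under all alternatives run (19, of which the one on brighter genes did not hold Plin1 and Cidec), and 66 of the 88 called genes were called under all of them. Without control 3813, 14 lost the call, without control 3814, 10, and without 1 of the obstructed kidneys, 4. Leaving out 1 of the 7 IL-33-deficient arrays gave 2276 to 3798 called genes instead of 3955, 1055 to 1878 higher and 1221 to 1960 lower. WT arrays were not left out for this response. The lowest values came without control 3813 and the next without control 3814 (2575 called, 1210 higher). A fold change of at least 1.5 left 1577 (782 higher, 795 lower). The study's own threshold (unadjusted p under 0.05, adjusted p under 0.25, fold above 1.3) left 2756 (1415 higher, 1341 lower). The other alternatives gave 3544 to 4383 calls. For the difference between the genotypes, leaving out each of the WT arrays in turn was added after the data were seen, and without WT kidney 3818 it gave 1 call, lower, instead of 0 (Il33). Other left-out arrays gave 0. Between the sets, array weights gave 1 call (Cenpa) and the study's threshold 3 (Cenpa, Rhoj and Zfp512), all lower in set 2. Values that changed sign were those of Il33 (-0.006 to 0.048 with 1 array left out, the lowest without kidney 3897, and -0.025 in set 1 alone), Cfd (-0.068 to 0.384, the lowest without kidney 3822, and -0.072 in set 2 alone) and Cenpa (-0.037 in set 2 alone), none of them called. Set as a random block gave 3969 calls (correlation within a set -0.00745), with the 2 controls outside both sets. No paired analysis was possible because the groups share no replicate numbers.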

Other observations

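Further groups of genes were listed after their values were seen, so their counts describe these arrays and support nothing. Of 27 acute phase and STAT3 target genes 14 were called higher and none lower, among them Socs3, the feedback inhibitor of cytokine receptors (log2 3.18), Cp, ceruloplasmin (2.81), Serpina3n (2.61) and Cebpb (2.12). Of 28 genes of tubulin and actin 18 were higher and 2 lower, led by Tubb6 (2.44), Actn1 (2.40) and Msn (2.13). Of 25 annexins and S100 proteins 12 were higher and 2 lower, with Anxa3 at 2.45 and Anxa2 at 2.05 against Anxa13 at -0.89.

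Of 27 small proline-rich proteins and claudins 8 were called higher and 1 lower. Sprr2g (3.23), Sprr2f (2.65) and the claudin Cldn4 (2.56) gave the largest rises and Cldn10 the fall (-1.41). Among 12 carbonic anhydrases 5 were lower, Car14 (-2.41) and Car4 (-2.35) the most, and Car13 (2.14) and Car11 (0.44) were higher. Of 18 clock genes 4 were lower, among them Arntl (-0.71), Npas2 (-0.45) and Clock (-0.27), and 2 higher, Dbp (2.07) and Bhlhe40 (1.17). The hour of harvest is not in the labels, and its part was not tested. Among 15 glycolytic genes 4 were higher, Pfkp (0.91) the most, and 3 lower, Pgam2 (-2.25) the most.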
